A study of Rattus norvegicus with 4 samples.

Results

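The transcripts of 10 genes that mark excitatory neurons of the hippocampus and their precursors were examined in newborn rats. The rats had been exposed before birth to bisphenol A (BPA), an endocrine-disrupting chemical of polycarbonate plastics. The genes were Prox1, Neurod1, Calb1 and Dcx, which mark the granule neurons of the dentate gyrus and immature neurons, Neurod2, Neurod6, Tbr1 and Wfs1, which mark pyramidal and other glutamatergic neurons of the pallium, and the vesicular glutamate transporter genes Slc17a7 and Slc17a6. They were found by gene symbol, and 10 of 10 were listed in every library, each in 1 row with a gene ID, among 17445 rows in all and 16375 rows present in all 4 libraries. The pups were Wistar rats, taken on postnatal day 1, and their dams, 10 weeks old, had received either BPA at 5000 µg/kg body weight or vehicle every day from gestation day 1 until they gave birth. The 2 treatments and both sexes made 4 groups, called control and BPA of each sex, and each group was 1 RNA-seq library made from the pooled hippocampi of 3 pups. With 1 pool for each group, no group had a replicate library, so a difference between BPA and control within a sex is a difference between 2 libraries and carries no test. All 4 groups shared the strain, the age and the tissue, and no genetic alteration was named.

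Hippocampal excitatory neurons arise from the pallium, the dorsal part of the embryonic forebrain. Pyramidal neurons of the fields CA1 to CA3 are born mainly before birth, whereas granule neurons of the dentate gyrus are still being produced around birth and for weeks afterwards, so a newborn hippocampus holds both settled pyramidal neurons and newly made granule neurons. Basic helix-loop-helix factors of the NeuroD family act one after another in this lineage: Neurod1 in late progenitors and young neurons, Neurod2 and Neurod6 in postmitotic glutamatergic neurons. These factors bind E-boxes, short DNA motifs spelled CANNTG, and the form CAGATG, read as CATCTG on the opposite strand, is the one preferred by NeuroD proteins.

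The promoters of the 3 NeuroD genes are shown because these paralogs were at high levels in the same tissue and their values in the female libraries differed in direction. Each sequence is the RefSeq promoter of the rat assembly GRCr8, 250 bases before and 50 bases after the transcription start, on the strand of the gene, with every CAGATG or CATCTG in capitals. Neurod1 lies at chr3:84770405-84770704, Neurod2 at chr10:83824228-83824527 and Neurod6 at chr4:86180106-86180405, all on the minus strand.
Neurod1: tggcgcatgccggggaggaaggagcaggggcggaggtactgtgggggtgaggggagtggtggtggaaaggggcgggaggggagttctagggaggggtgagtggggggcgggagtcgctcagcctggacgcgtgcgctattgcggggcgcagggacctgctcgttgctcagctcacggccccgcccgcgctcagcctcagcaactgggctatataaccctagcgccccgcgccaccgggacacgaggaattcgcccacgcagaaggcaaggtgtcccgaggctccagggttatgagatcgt
Neurod2: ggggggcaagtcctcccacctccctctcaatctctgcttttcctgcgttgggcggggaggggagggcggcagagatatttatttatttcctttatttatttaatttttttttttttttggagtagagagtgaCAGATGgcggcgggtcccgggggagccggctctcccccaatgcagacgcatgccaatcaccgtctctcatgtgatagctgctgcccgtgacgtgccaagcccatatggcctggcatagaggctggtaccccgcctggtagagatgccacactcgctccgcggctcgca
Neurod6: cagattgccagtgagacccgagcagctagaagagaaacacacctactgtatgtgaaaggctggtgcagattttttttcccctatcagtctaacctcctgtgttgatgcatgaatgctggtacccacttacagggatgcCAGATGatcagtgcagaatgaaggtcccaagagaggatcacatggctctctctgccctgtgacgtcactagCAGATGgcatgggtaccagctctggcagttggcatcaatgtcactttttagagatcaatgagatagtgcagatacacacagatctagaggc
Neurod6 held 2 copies of CAGATG, 112 and 41 bases before the start, and Neurod2 held 1 copy 118 bases before the start. The Neurod1 window held neither CAGATG nor CATCTG. Among 33469 rat promoters of the same length, 16.6% held CAGATG or CATCTG. The related palindrome CAGCTG, which was in 15.1% of those promoters, was found 60 bases before the start of Wfs1 and 218 bases before the start of Slc17a6, and in no other of the 8 promoters of these genes in the table. Promoters of Prox1 and Calb1 were not analysed here.

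Gene levels are given in FPKM, which corrects the fragments of a gene for its length and for the size of the library, so levels may be compared between genes. The depth of the libraries, estimated from the steps in which low values fall, was between 8660000 and 8920000 fragments. Differences are given on the log2(FPKM + 1) scale, and counts of genes refer to rows with a mean of at least 1 FPKM. Counting intervals are 95% exact binomial intervals of the log2 ratio of FPKM, computed from the estimated fragments, and cover counting error only. Where 4 values follow one another, males come before females and vehicle before BPA. In RNA from whole tissue, fewer cells of a type and less RNA per cell cannot be told apart.

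All 10 genes had a mean above 1 FPKM. Dcx, which encodes the microtubule-binding protein doublecortin of migrating young neurons, had the highest mean, 285 FPKM, and lay at or above 98.8% of all rows in mean level. Below it came Neurod6 at 144 FPKM, Slc17a7 at 120 FPKM, Neurod2 at 67.9 FPKM and Neurod1 at 59.99 FPKM. Tbr1 had a mean of 25.8 FPKM, Slc17a6 of 15.0 FPKM, Prox1 of 10.8 FPKM, Calb1 of 10.7 FPKM and Wfs1 of 3.14 FPKM. The order did not follow maturity, since Slc17a7, a gene of mature synapses, was the third highest, and Prox1 was level with Calb1, which encodes calbindin of mature granule neurons. The ranges over the 4 libraries overlapped for 3 pairs of neighbours in this order. Neurod6 was above Slc17a7 in 3 of 4 libraries, Neurod2 was above Neurod1 in 3 of 4 libraries, and Prox1 was above Calb1 in 2 of 4 libraries. The other 6 pairs of neighbours had separate ranges. Transcripts of genes listed for both the granule and the pyramidal lineage were thus present in every library. They cannot decide whether the tissue was hippocampus alone, because several of these genes also mark other glutamatergic neurons of the pallium.

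**Figure D1:**
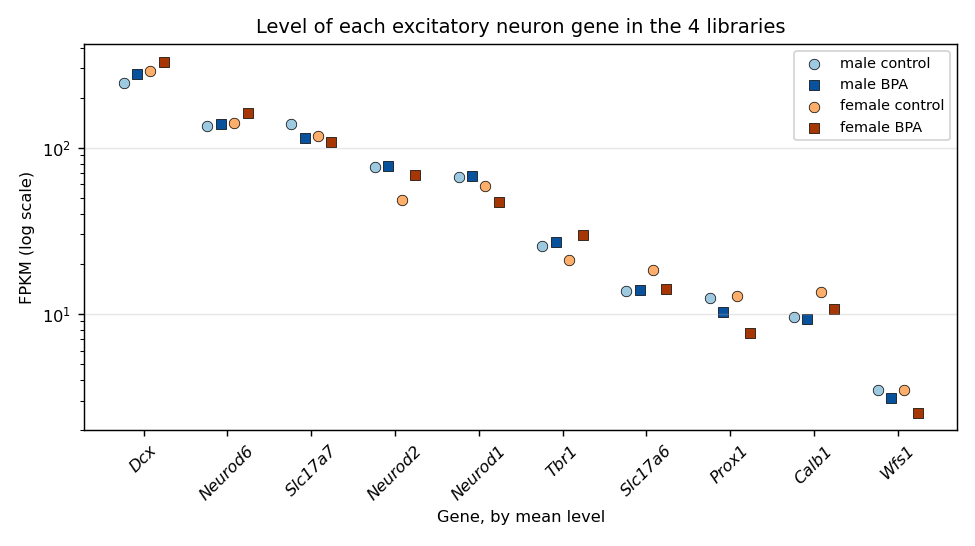
Level of each of the 10 genes in FPKM on a log axis, with 1 point for each of the 4 libraries (control and BPA of each sex), in order of mean level. The genes span a range from Wfs1, at a mean of 3.14 FPKM, to Dcx, at a mean of 285 FPKM, and 6 pairs of neighbouring genes have separate ranges.

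Across the 4 libraries the highest value exceeded the lowest by 1.20-fold for Neurod6, at the narrow end, and by 1.68-fold for Prox1, at the wide end. The corresponding value was 1.61 for Neurod2, 1.45 for Calb1, 1.43 for both Tbr1 and Neurod1, 1.37 for Wfs1, 1.35 for Dcx, 1.33 for Slc17a6 and 1.28 for Slc17a7. In the female BPA library lay the value farthest from the median of the other libraries for 5 genes, namely Prox1, Neurod1, Dcx, Neurod6 and Wfs1. In the female control library lay that value for 4 genes, namely Calb1, Neurod2, Tbr1 and Slc17a6, and for Slc17a7 it was in male control. The male BPA library held it for none of the 10 genes.

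Markers of other cells differed between these libraries, and they touch the comparisons that follow. The 6 meninges markers, among them Ptgds and Col1a2, summed to 308 FPKM in female control and 57.6 FPKM in female BPA. Their sums were 73.9 and 74.2 FPKM in the male control and BPA libraries. In female BPA 6 of 6 were lower by over 0.3 than in female control, as were 17.1% of all rows. The 7 choroid plexus markers summed to 266 FPKM with vehicle and 707 with BPA in males, and to 9.49 with vehicle and 45.6 with BPA in females, mostly from Ttr, the transthyretin gene, except in female control. The 10 interneuron markers summed to 295 FPKM with vehicle and 289 with BPA in males, and to 250 with vehicle and 228 with BPA in females. Of these 10, 7 were lower with BPA in males and 8 in females, as were 50.4% and 56.5% of all rows. The 8 astrocyte and radial glia markers were lower in sum with BPA in both sexes, with sums of 1526 FPKM with vehicle and 1380 with BPA in males, and 1521 with vehicle and 1403 with BPA in females. Both BPA sums lay below both control sums. With BPA, 50.4% of all rows were lower in males and 56.5% in females, against 7 of 8 and 8 of 8 of these genes. Among them Aqp4, a water channel of astrocytes, had a combined difference of -0.47 (limma unadjusted p = 0.00436, adjusted p = 0.973), and the glutamate transporter gene Slc1a3 one of -0.23 (limma unadjusted p = 0.0453, adjusted p = 0.973). The 6 oligodendrocyte lineage markers summed to 133 FPKM with vehicle and 102 with BPA in males, and to 106 with vehicle and 90.6 with BPA in females. The sum was again lower with BPA in both sexes. Of these 6 genes, 5 were lower with BPA in males, but in females 3 were lower and 3 higher. The sums of astrocyte, oligodendrocyte and interneuron markers thus had the direction of Prox1, Calb1, Wfs1 and Slc17a7. Those of 6 microglia markers did not in males, at 37.59 FPKM with vehicle and 46.68 with BPA. In females they were 48.17 FPKM with vehicle and 44.15 with BPA. Of markers of neighbouring brain regions, those of the thalamus and hypothalamus were low, with summed values of 9.96 to 12.9 FPKM, Sim1 at 0.1 FPKM or less throughout, and Gbx2, Pou4f1 and Rora not found by symbol. Subiculum and neocortex markers summed to 61.8, 65.3, 56.0 and 70.5 FPKM, with female BPA the highest. The part of meninges, choroid plexus, glia, interneurons or neighbouring tissue in the values below was not tested.

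**Figure D2:**
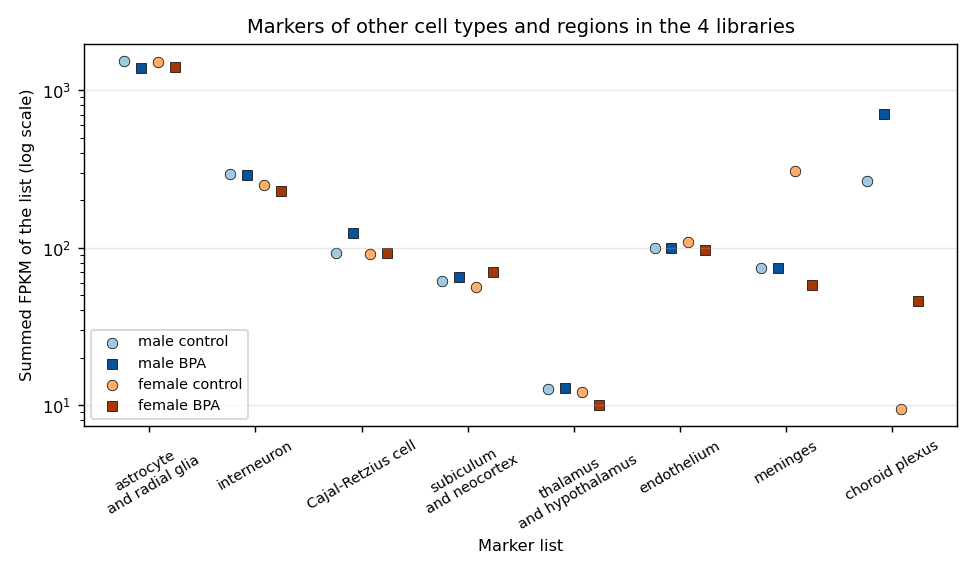
Summed FPKM of the marker lists of other cell types and neighbouring regions on a log axis, 1 point for each of the 4 libraries. Meninges markers stand apart in female control at 308 FPKM, and choroid plexus markers range from 9.49 FPKM in female control to 707 FPKM in male BPA.

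Genes of the granule neuron lineage were lower in the female BPA library than in female control, except Dcx. Prox1, the homeobox factor that specifies granule neurons and maintains their identity, was at 12.38 FPKM with vehicle and 10.24 with BPA in males, and at 12.81 with vehicle and 7.61 with BPA in females. Both BPA libraries lay below both control libraries, and female BPA was the lowest. The difference was -0.25 in males (counting interval -0.48 to -0.07) and -0.68 in females (-0.97 to -0.53), where BPA was 40.6% below control. The estimated fragments behind these values were 446, 369, 450 and 272.

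Neurod1, needed for the survival and differentiation of granule neurons, was at 66.61 FPKM with vehicle and 67.53 with BPA in males, and at 58.57 with vehicle and 47.25 with BPA in females. The male libraries were close to each other and both above the female libraries. The difference between BPA and control was 0.02 in males (-0.10 to 0.14) and -0.30 in females (-0.45 to -0.17), which is 19.3% lower. Calb1, which encodes the calcium buffer calbindin and is also found in some interneurons, was at 9.55, 9.30, 13.47 and 10.66 FPKM in the same order of libraries, with female control above the other three. Calb1 differed by -0.03 in males (-0.39 to 0.31) and by -0.31 in females (-0.65 to -0.03).

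Dcx was higher with BPA in both sexes. It was at 244.17 FPKM with vehicle and 278.44 with BPA in males, and at 288.56 with vehicle and 329.64 with BPA in females. The difference was 0.19 in both sexes, with counting intervals of 0.16 to 0.22 in males and 0.17 to 0.22 in females. The male BPA library nevertheless lay below female control, so the BPA and control libraries overlapped, whereas the female libraries lay above both male libraries. With quantile normalization the female difference of Dcx was 0.08.

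Of the 4 pyramidal and pallial genes, Neurod2, Neurod6 and Tbr1 were higher in the female BPA library than in female control, and Wfs1 was lower. Neurod2 was at 76.74 FPKM with vehicle and 77.88 with BPA in males, and at 48.33 with vehicle and 68.79 with BPA in females. Female control was the low library, and the other 3 lay close together. The difference was 0.02 in males (-0.06 to 0.10) and 0.50 in females (0.41 to 0.61), or 42.3% higher with BPA.

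Neurod6, a marker of postmitotic pyramidal neurons, was at 135.01 FPKM with vehicle and 138.32 with BPA in males, and at 141.49 with vehicle and 161.31 with BPA in females. Here female BPA was the high library. The difference was 0.03 in males (-0.05 to 0.12) and 0.19 in females (0.11 to 0.27). Tbr1, a T-box factor of early glutamatergic neurons that acts after the progenitor factor Eomes, was at 25.41, 26.88, 20.92 and 29.96 FPKM in the same order. Both BPA libraries lay above both control libraries. For Tbr1 the difference was 0.08 in males (-0.05 to 0.22) and 0.50 in females (0.38 to 0.66), or 43.2% higher with BPA.

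Wfs1, which encodes wolframin of the endoplasmic reticulum and marks CA1 pyramidal neurons as they mature, was at 3.46 FPKM with vehicle and 3.09 with BPA in males, and at 3.47 with vehicle and 2.53 with BPA in females. Both BPA libraries were below both controls, but no more than 97 fragments stood behind any value. The difference of -0.12 in males had a counting interval of -0.60 to 0.27, and that of -0.34 in females had one of -0.92 to 0.01. A difference in Wfs1 was therefore not detectable at this depth in either sex.

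The transporters load glutamate into synaptic vesicles, Slc17a7 (VGLUT1) in most mature cortical and hippocampal excitatory neurons and Slc17a6 (VGLUT2) in subcortical and many immature ones. Slc17a7 was at 138.08 FPKM with vehicle and 114.43 with BPA in males, and at 117.34 with vehicle and 108.26 with BPA in females. Both BPA libraries lay below both controls, and male control was the high library. The difference was -0.27 in males (-0.36 to -0.18) and -0.12 in females (-0.21 to -0.02). Slc17a6 was at 13.73, 13.85, 18.25 and 14.08 FPKM in the same order, so female control was above 3 nearly equal libraries. For Slc17a6 the difference was 0.01 in males (-0.17 to 0.20), which turned to -0.00 with quantile normalization, and -0.35 in females (-0.55 to -0.20). The ratio of Slc17a7 to Slc17a6 was 10.1 with vehicle and 8.26 with BPA in males, and 6.43 with vehicle and 7.69 with BPA in females, so it was lower with BPA in males and higher with BPA in females.

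**Figure D3:**
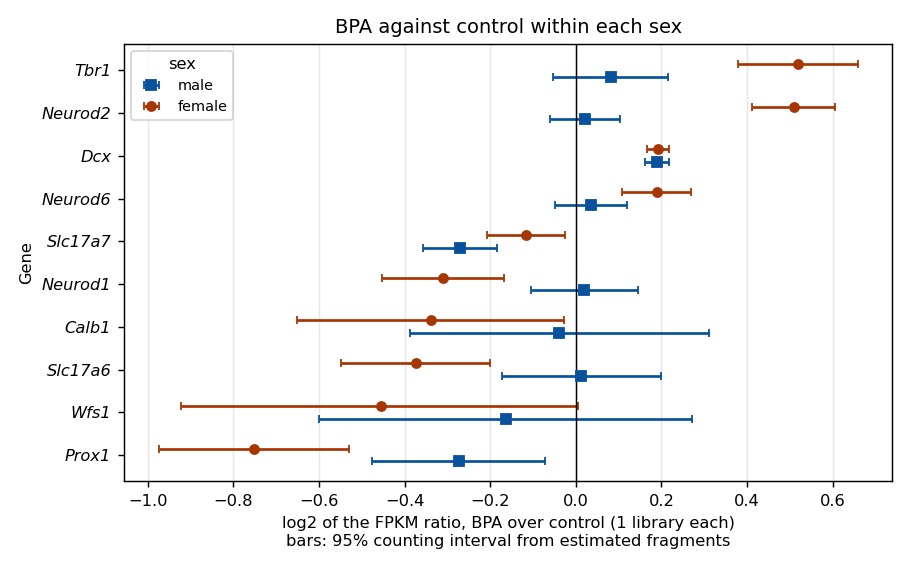
Difference between BPA and control on a log2 scale for each of the 10 genes, with 1 point for males and 1 for females. Bars are the 95% counting intervals of the log2 ratio of FPKM, which cover counting error only. On the log2(FPKM + 1) scale, the differences run from -0.27 to 0.19 in males. In females they run from -0.68 for Prox1 to 0.50 for Neurod2 and Tbr1. As log2 ratios of FPKM, the female values are -0.75 for Prox1, 0.51 for Neurod2 and 0.52 for Tbr1.

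In males, 0 of 10 genes differed by more than 0.3 on the log2 scale between BPA and control, while 18.6% of the 13508 rows measured in males did. In females, 7 of 10 genes differed by more than 0.3, against 25.4% of 13550 rows. Among the 9167 rows with a gene ID at the levels of the 10 genes, the shares were lower, 11.1% in males and 17.5% in females. Neurod2 and Tbr1 were higher by more than 0.3, as were 8.26% of rows, and Prox1, Neurod1, Calb1, Wfs1 and Slc17a6 were lower, as were 17.1% of rows. With quantile normalization, which changes the split of all such rows in females from 32.5% to 49.4% higher, 5 of 10 genes passed 0.3, against 22.9% of rows, of which 2 were higher and 3 lower, and Calb1 and Wfs1 no longer did. None of the 10 passed a difference of 1 in either sex, against 1.7% of rows in males and 2.32% in females. The median size of the difference over the 10 genes was 0.06 in males and 0.33 in females, beside 0.13 and 0.16 over all rows. The female difference was the larger in size for 9 of 10 genes, Slc17a7 being the exception. The median of the signed differences was 0.02 in males and -0.21 in females, beside -0.00 and -0.04 over all rows.

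Because 4 of these genes were set apart by the female control library, the female BPA library was also compared with male control, a comparison chosen after the values were seen. Prox1, Neurod1 and Wfs1 were again lower by more than 0.3, at -0.64, -0.49 and -0.34. The direction turned for Calb1 (0.14), Neurod2 (-0.16) and Slc17a6 (0.03). Tbr1 was again higher in female BPA at 0.23, and Neurod6 at 0.26, while Dcx differed by 0.43 and Slc17a7 by -0.35. With this control 5 of 10 genes passed 0.3, against 28.8% of rows, of which 1 was higher, as were 11.0% of rows, and 4 were lower, as were 17.8% of rows. This comparison also differs in sex.

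The signs were the same in both sexes for 8 of 10 genes, as they were for 56.0% of all rows. Dcx, Neurod2, Neurod6 and Tbr1 were higher with BPA in both, as were 24.4% of rows, and Prox1, Calb1, Wfs1 and Slc17a7 were lower in both, as were 31.6% of rows. None of the 10 passed 0.3 in the same direction in both sexes, against 5.01% of rows. Neurod1 and Slc17a6 had opposite signs, but their male differences, 0.02 and 0.01, lay within counting error. In males the counting interval left out zero for Prox1, Dcx and Slc17a7, and in females for 9 of 10 genes, Wfs1 being the exception. The same held for 28.3% of all rows in males and 37.0% in females, and for 28.5% and 37.7% of the 10668 rows whose mean lay within the range of the 10 genes. The female difference minus the male difference was -0.43 for Prox1, -0.36 for Slc17a6, -0.32 for Neurod1, 0.42 for Tbr1 and 0.48 for Neurod2, and that of Dcx was 0.00. With 1 library in each group these differences between the sexes could not be tested.

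When the 2 BPA libraries were compared with the 2 control libraries using limma across all 13542 rows, 0 of 10 genes and 0.0% of rows passed the threshold of 0.05 on the Benjamini-Hochberg adjusted p. Without adjustment, p was under 0.05 in limma for 1 of 10 genes, Prox1, and for 4.7% of rows. For Prox1 the log2 difference was -0.47 with a standard error (SE) of 0.163 and an adjusted p = 0.973 (limma, unadjusted p = 0.0255). Tbr1 followed with 0.29 (SE 0.134, limma unadjusted p = 0.0699), and then Slc17a7 with -0.19 (SE 0.113, limma unadjusted p = 0.135). For the other genes the difference was 0.26 for Neurod2, 0.19 for Dcx, 0.11 for Neurod6, -0.14 for Neurod1, -0.17 for both Calb1 and Slc17a6, and -0.23 for Wfs1, and the adjusted p of the 10 genes lay between 0.973 and 0.974 in limma. With sex as a covariate, 5 of 10 genes, namely Prox1, Dcx, Slc17a7, Tbr1 and Neurod2, had an unadjusted p under 0.05 in limma, as did 8.98% of rows in that fit, and the lowest adjusted p was 0.445, for Prox1. Both BPA libraries were above both controls for 1 gene, Tbr1, as for 13.8% of rows, and below for 3 genes, Prox1, Wfs1 and Slc17a7, as for 19.9% of rows, so that 4 of 10 did not overlap, against 33.6% of rows. For a single gene, 2 libraries against 2 cannot reach a two-sided exact permutation p below 0.333.

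The sexes were compared in the same way, with 2 female libraries against 2 male libraries. Neurod1 and Neurod2 were lower in both female libraries than in both male libraries, as were 22.5% of rows, and Calb1, Dcx, Neurod6 and Slc17a6 were higher in both, as were 19.8% of rows, so that 6 of 10 did not overlap, against 42.3% of rows. In limma, 0 of 10 genes passed the adjusted threshold, as did 0.00738% of rows, and 3 of 10 had an unadjusted p under 0.05, as did 10.6% of rows. These were Neurod1 (-0.34, SE 0.111, limma unadjusted p = 0.0180), Neurod2 (-0.42, limma unadjusted p = 0.0323) and Dcx (0.24, SE 0.0999, limma unadjusted p = 0.0479). Their adjusted p was at least 0.376 in limma. Between the control libraries alone, females differed from males by more than 0.3 for 3 of 10 genes, against 24.8% of rows: Neurod2 (-0.66), Calb1 (0.46) and Slc17a6 (0.39). Between the BPA libraries 2 of 10 genes did so, against 23.7% of rows: Neurod1 (-0.51) and Prox1 (-0.38).

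Ratios between genes of the same library are not affected by a common scaling. The ratios given here were chosen after the values were seen. The ratio of Prox1 to Neurod6 was 0.0917 with vehicle and 0.0740 with BPA in males, and 0.0905 with vehicle and 0.0472 with BPA in females. The 2 control libraries of opposite sex were close, and female BPA was the lowest. The ratio of Neurod1 to Neurod6 was 0.493, 0.488, 0.414 and 0.293 in the same order, again lowest in female BPA. The ratio of Neurod1 to Neurod2 was 0.868 in male control and 0.867 in male BPA, but 1.21 in female control and 0.687 in female BPA. The female libraries thus lay on either side of the male ones. The ratio of Dcx, a gene of immature neurons, to Slc17a7, a gene of mature synapses, was 1.77 in male control and 2.43 in male BPA, and 2.46 in female control and 3.04 in female BPA.

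The wider lineage was described with lists of genes of granule and mossy cells, CA1 to CA3 fields, pallial transcription factors, progenitors, immature neurons and mature excitatory neurons. None of their genes passed the adjusted threshold in the combined limma comparison, and the lowest adjusted p in each list was 0.973. Without adjustment p was under 0.05 in limma for 2 of them, Pcp4 among them, and for 4.7% of all rows. Both belonged to the list of 11 genes of the CA1 to CA3 fields and were higher with BPA. Of 5 granule and mossy cell genes with a mean of at least 1 FPKM, 2 were lower and none was higher by more than 0.3 in females. Among all rows, 17.1% were lower and 8.26% higher by that much in females. In males 1 of the 5 was higher, against 18.6% of rows in either direction. Bhlhe22, a helix-loop-helix factor of postmitotic neurons, was at 118.64, 126.83, 90.16 and 87.53 FPKM in the same order. Calb2, which encodes calretinin of immature granule neurons, mossy cells and some interneurons, was at 42.25, 38.54, 46.87 and 37.54 FPKM, with both BPA libraries below both controls. C1ql2, a synaptic organizer of mossy fibers, was at 0.76 FPKM in male control and lower in the others, too low for the test.

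Of 11 genes of the CA1 to CA3 fields, 5 were higher and 2 were lower by more than 0.3 in females. Among all rows, 8.26% were higher and 17.1% lower by that much in females. In males 1 of the 11 was higher and none was lower, against 18.6% of rows in either direction. Pcp4, a calmodulin regulator found in CA2 neurons among others, was at 164.30, 190.13, 171.06 and 211.76 FPKM, with both BPA libraries above both controls, and Mpped1 was at 116.69, 116.88, 107.05 and 133.58 FPKM. The median difference over the list was -0.14 in males and 0.28 in females, beside -0.00 and -0.04 over all rows. Some of the genes in the list are also expressed in neocortex, whose markers were highest in sum in the female BPA library.

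Of 15 pallial transcription factors, 2 were higher and 2 lower by more than 0.3 in females, against 8.26% and 17.1% of all rows. The median difference over the list was 0.05 in males and -0.02 in females. Nfix was at 298.93, 309.62, 240.62 and 277.69 FPKM. Female control was the lowest library for this nuclear factor I gene, as it was for Neurod2 and Tbr1. Of 7 progenitor and neurogenesis genes, Hes5, a Notch target that keeps progenitors undifferentiated, was lower with BPA by more than 0.3 in both sexes. It was at 10.64, 6.26, 6.33 and 3.92 FPKM, with differences of -0.68 in males and -0.58 in females and both BPA libraries below both controls, though male BPA and female control differed by little. Hes6 was at 151.23, 159.89, 117.09 and 138.20 FPKM, and Sox2 at 36.28, 35.17, 27.45 and 28.03 FPKM. The progenitor factors Eomes, Neurog1, Neurog2 and Insm1 were not found by symbol.

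The immature neuron genes had the same direction as Dcx. The value was higher with BPA for 12 of 12 in males, as for 49.2% of all rows, and for 12 of 12 in females, as for 43.2% of rows. With quantile normalization it was higher for 10 in males, with none lower, and for 9 in females, with 2 lower. The differences were small in males, with a median of 0.05, and had a median of 0.25 in females, which became 0.06 with quantile normalization. Tubb2b, a tubulin of young neurons, was at 3406.35, 3740.94, 2809.05 and 3487.93 FPKM, and Stmn1, a microtubule destabilizer, was at 1691.92, 1803.44, 1879.10 and 2419.15 FPKM. The BPA libraries lay above both controls for Tubb2b, while for Stmn1 male BPA lay below female control.

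The mature excitatory neuron genes had the direction of Slc17a7. The value was lower with BPA for 7 of 8 in males, as for 50.4% of all rows, and for 6 of 8 in females, as for 56.5% of rows, with medians of -0.13 and -0.14, and none passed 0.3. With quantile normalization 7 of 8 were lower in each sex. The astrocyte and radial glia markers, given above, were lower with BPA in the same libraries, and their part in these values was not tested. Nrgn, which encodes the postsynaptic calmodulin-binding protein neurogranin, was at 211.78, 178.09, 169.93 and 145.21 FPKM, and Camk2b, a subunit of the calcium-dependent kinase of synapses, was at 190.83, 179.24, 165.64 and 170.43 FPKM. Nrgn was lower with BPA in both sexes, but male BPA lay above female control.

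**Figure D4:**
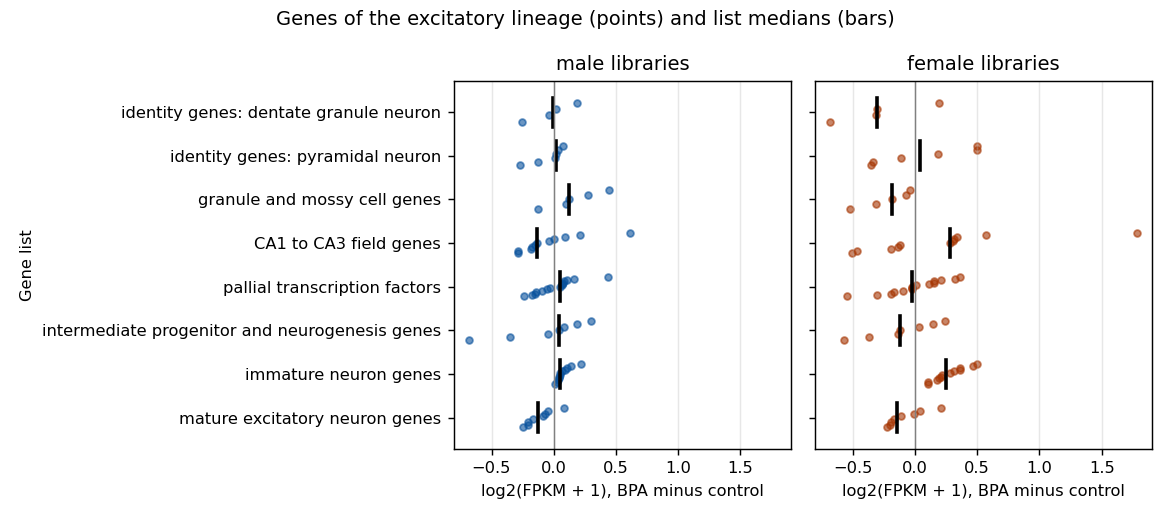
Difference between BPA and control on the log2(FPKM + 1) scale for every gene with a mean of at least 1 FPKM in the lineage lists, with males and females side by side and the median of each list marked. The immature neuron genes lie above zero in both sexes, with a median of 0.05 in males and 0.25 in females, and the mature excitatory genes mostly lie below zero, with medians of -0.13 and -0.14.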

How the data were processed

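The authors deposited 1 FPKM value per gene and library, with 0.01 as the lowest value listed. The submitters' processing notes name the genome build rn6 and the tools HISAT 0.1.6, Bowtie2 2.2.5 and RSEM, without their roles. No counts were used. Files were joined on row names, and 503 rows listed for males only and 567 for females only entered within-sex comparisons alone. Differences were taken on log2(FPKM + 1), which understates changes of low genes, and rows averaging under 1 FPKM were left out. Both contrasts over 4 libraries were fitted to all 13542 rows with the R package limma (version 3.58.1, R 4.3.3; moderated with a trend, two-sided, Benjamini-Hochberg adjustment), without covariates. Nothing in the sample records gives replicate libraries, so these p-values measure only the spread between pools of different sex or treatment. The limma and depth steps were tested on simulated data.

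Depth was estimated from gene-ID rows of 300 to 1500 bases, as the fragment number at which low values become whole. The share of low values that came within 0.15 of a whole number was then 93.3% to 97.6%. Tables were joined with pandas 2.3.3 and numpy 2.4.6, intervals computed with scipy 1.17.1, and figures drawn with matplotlib 3.10.9, under Python 3.11.15. From each lineage list beyond the 10 genes, those named are the 2 with the highest mean and any past 0.3 in the same direction in both sexes. The lists of other cells and regions did not follow this rule. Aqp4 and Slc1a3 were the 2 astrocyte and radial glia markers with an unadjusted p under 0.05 in limma. Some genes that meet this rule are not reported here. Members and lists were chosen with earlier results of these data known. Alternatives were a pseudocount of 0.1, a floor of 5 FPKM on the mean or none, quantile normalization, new gene models summed with the gene of the same protein name, a covariate, and leaving out each library.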

Additional observations from a re-analysis of the deposited data

How the results depend on the processing

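The sample labels carry no replicate numbers to pair libraries by, and the fit with sex as a covariate sets BPA against control within each sex. In the combined comparison of BPA with control, 0 rows passed the adjusted threshold in limma (637 at an unadjusted p under 0.05), 2 with sex as a covariate, and 0 to 3 with 1 library left out, 3 of them without female control. Between the sexes 1 row passed in limma, 21 with a mean of at least 5 FPKM, 25 with new gene models summed, 55 with treatment as a covariate, and 1 to 2 with 1 library left out. Rows past a log2 difference of 1 numbered 230 in males, with 482, 26 and 57 at a pseudocount of 0.1, a mean of at least 5 FPKM and new gene models summed. In females they numbered 314, with 589, 62 and 115 under the same settings. Of those female rows 44.3% were higher, against 58.7% with quantile normalization. The number of the 10 genes past 0.3 was 0 in males under every setting for a single sex, and in females 7, or 6 with a mean of at least 5 FPKM, which drops Wfs1, and 5 with quantile normalization. With 1 library left out in turn, the combined difference ran from -0.40 to 0.11 for Neurod1, above zero without female BPA. It ran from -0.40 to 0.055 for Calb1, from -0.067 to 0.59 for Neurod2 and from -0.36 to 0.023 for Slc17a6, and turned in each of these without female control. The combined difference kept its direction but changed in size for Dcx (0.069 to 0.31), Neurod6 (0.0011 to 0.22) and Tbr1 (0.15 to 0.42). The same held for Wfs1 (-0.34 to -0.13) and Slc17a7 (-0.31 to -0.076). The difference between the sexes ran from -0.51 to 0.17 for Prox1 and from -0.27 to 0.066 for Wfs1, above zero without female BPA, and from -0.31 to 0.19 for Tbr1, above zero without female control. The causes were not tested beyond the library left out. The combined Prox1 difference kept its direction in every setting run, from -0.66 to -0.27, with adjusted p from 0.445 to 1.00 in limma. Over the 10 genes and all these settings, 95 recomputed values kept their direction and their side of the threshold and 4 turned in the treatment comparison, and 96 kept them and 3 turned in the sex comparison. Depth limits Wfs1, and the single library of each group limits every comparison within a sex.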
